A study of Homo sapiens with 12 samples.

Results

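Untreated NB4 cells were compared with untreated Kasumi-1 cells. The comparison used the 3 NB4 and the 3 Kasumi-1 control samples, 6 of the 12 samples of the series, all incubated with the solvent DMSO for 48 h. It covered every gene whose average over these 6 samples reached 0.1 FPKM, 12302 of the 20003 genes in the files. FPKM are fragments scaled to the length of the transcript and the number of mapped fragments, so the level of a gene is given per length. NB4 is a cell line of acute myeloid leukemia (AML) of the promyelocytic type, AML-M3, that carries the PML-RARα fusion, and Kasumi-1 is an AML-M2 cell line that carries AML1-ETO. The other 6 samples are the same lines incubated with 1 μM OGP46, a kaurene diterpenoid, for 48 h. Each leukemia is represented by 1 line, so what belongs to the fusion, to the stage of differentiation, to the donor or to growth in culture cannot be told apart here. The incubation time is that of the labels, and a figure legend of the study names a longer one. The labels do not say whether the 3 samples of a group were separate cultures.

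Both fusions join a DNA-binding regulator to a partner that changes what it does. In PML-RARα, the retinoic acid receptor RARα, which pairs with RXR and switches genes on when retinoic acid binds, is held in a repressing state until the ligand is given at high dose, and cells stop as promyelocytes. AML1-ETO joins the DNA-binding domain of RUNX1 (AML1) to nearly all of RUNX1T1 (ETO), a corepressor that blood cells hardly make otherwise, and the blasts keep features of progenitors. Promyelocytes fill their primary granules with myeloperoxidase and serine proteases, while the proteins of later granules and of the phagocyte come on as neutrophils and monocytes mature.

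The libraries of a line were alike. Pearson's r over the genes tested, on log2(FPKM + 0.1), was between 0.987 and 0.992 among the NB4 controls and between 0.992 and 0.994 among the Kasumi-1 controls, against 0.790 to 0.820 between the lines. These correlations are descriptions over genes that share libraries. NB4 control 2 stood apart within its line. Among 6013 genes averaging 5 FPKM or more in NB4, 39 were over 1.5-fold above both other NB4 controls in this library and 57 were over 1.5-fold below them, against 3 to 8 in either direction for NB4 controls 1 and 3. Genes of the other line were also seen at low levels, more in some libraries than in others. Genes of Kasumi-1 that were near 0 in NB4 were seen in NB4 controls 1, 2 and 3 at a median of 0.0742%, 0.272% and 1.11% of their Kasumi-1 level (13 genes). Genes of NB4 that were near 0 in Kasumi-1 stood at 0.0982%, 1.55% and 0.0974% of their NB4 level in Kasumi-1 controls 1, 2 and 3 (16 genes). A log2 difference that moved by over 0.58 when these 2 libraries, NB4 control 3 and Kasumi-1 control 2, were left out is given with and without them for the genes described.

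More than every second gene tested differed between the lines. A gene was called at a Benjamini-Hochberg adjusted p below 0.05 in limma and a log2 difference (NB4 minus Kasumi-1, on log2(FPKM + 0.1)) of at least 0.58 in size, which is 1.49-fold. Of the 12302 genes, 6449 (52.4%) were called, 2790 (22.7%) higher in NB4 and 3659 (29.7%) higher in Kasumi-1. The 3 libraries of one line lay wholly above those of the other for 9554 genes (77.7%), 6390 of the called genes among them. Without NB4 control 3 and Kasumi-1 control 2, 2905 genes were called higher in NB4 and 3404 higher in Kasumi-1. The split between the lines depends on the scale. The FPKM summed to between 248207 and 256268 in the NB4 libraries and to between 279879 and 310262 in the Kasumi-1 libraries, and the median log2 difference of all genes tested was -0.10. NB4 held 43.3% of the calls on FPKM as deposited, against 54.6% after scaling to TPM (3592 and 2989 genes, median 0.10), 51.3% after median centring (3330 and 3162) and 50.2% after quantile normalization (3198 and 3169). Differences near 0 are to be read against this shift of about 0.2.

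**Figure D1:**
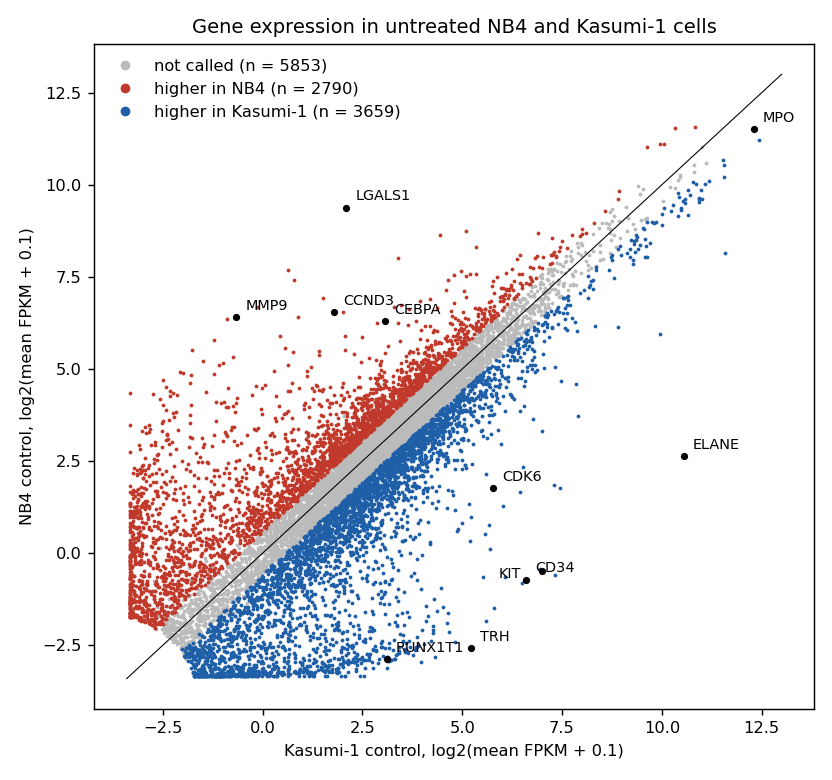
Mean level of each of the 12302 genes tested in the Kasumi-1 controls (x axis) and in the NB4 controls (y axis), both as log2(mean FPKM + 0.1), 3 libraries per line. Red points are the 2790 genes called higher in NB4, blue points the 3659 called higher in Kasumi-1, grey points genes not called, and black points mark named genes; most genes lie along the line of equal level, and genes such as ELANE and LGALS1 lie far from it.

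Large differences were common. At least 2-fold differences were called for 1741 genes higher in NB4 and 2374 higher in Kasumi-1, at least 8-fold for 415 and 504, and at least 64-fold for 43 and 57. At least 1 FPKM in every library of one line with at most 0.1 FPKM in each library of the other was found for 139 genes of NB4 and 187 of Kasumi-1. In all 6 libraries, 8451 genes reached 1 FPKM.

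The largest log2 differences towards NB4, among genes of at least 5 FPKM there, are given first. LGALS1, which encodes the sugar-binding protein galectin-1, was at 767, 489 and 741 FPKM in NB4 controls 1 to 3 and at 1.32, 9.97 and 1.25 FPKM in Kasumi-1 controls 1 to 3. The log2 difference was 7.93 ± 0.67 (SE; adjusted p = 6.36e-06), and 8.79 without NB4 control 3 and Kasumi-1 control 2. The intermediate filament protein vimentin, VIM, stood at 240.5, 143 and 234 FPKM in NB4 and 0.459, 3.43 and 0.471 FPKM in Kasumi-1 (7.59 ± 0.62, adjusted p = 5.55e-06, and 8.36 without both libraries). S100A10, the partner of annexin A2 in binding plasminogen at the cell surface, was at 47.7, 38.9 and 49.2 FPKM against 0.0880, 0.451 and 0.0497 FPKM (7.500 ± 0.41, adjusted p = 4.56e-07). The gelatinase gene MMP9 was at 107, 46.98 and 100.2 FPKM in NB4, lowest in NB4 control 2, and at 0.0508, 1.49 and 0.0601 FPKM in Kasumi-1 (7.88 ± 0.81, and 8.84 without both libraries). The argininosuccinate synthase gene ASS1, needed to make arginine, was at 108, 99.6 and 100.2 against 0.295, 1.88 and 0.249 FPKM (7.303 ± 0.55, and 8.12 without both libraries). In each of these genes the highest Kasumi-1 value was that of control 2, and every NB4 value lay above it. Leaving out Kasumi-1 control 1 alone moved MMP9 to 7.302.

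The homeobox gene RHOXF2B had the largest log2 difference towards NB4, with 81.3, 78.5 and 84.5 FPKM against 0, 1.29 and 0.0342 FPKM (8.26 ± 0.82). Kasumi-1 control 2 weighed on this value, which was 9.46 without that library, 9.43 without it and NB4 control 3, and 7.56 without Kasumi-1 control 1. Its near-identical copy RHOXF2 was at 20.3, 19.6 and 21.1 FPKM in NB4, so how the reads were shared between both is uncertain. OLIG2, a transcription factor known from the oligodendrocyte lineage, was at 37.9, 19.1 and 32.1 FPKM in NB4 and at 0, 0.458 and 0 FPKM in Kasumi-1. DEFB1, a beta-defensin of epithelia, was at 10.98, 32.6 and 17.4 FPKM in NB4 and was listed at 0 in all 3 Kasumi-1 libraries. The carboxylesterase gene CES1 was at 20.1, 35.7 and 22.00 FPKM and the cytochrome P450 gene CYP1B1 at 35.5, 31.5 and 23.9 FPKM in NB4, and neither exceeded 0.410 FPKM in any Kasumi-1 library. Without NB4 control 3 and Kasumi-1 control 2, the log2 differences of OLIG2, CES1 and CYP1B1 went from 7.34, 7.34 and 7.398 to 8.08, 7.95 and 8.32.

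The gene with the largest log2 difference towards Kasumi-1 was that of neutrophil elastase. ELANE, which encodes the elastase of primary granules, was at 1445, 1717 and 1352 FPKM in Kasumi-1 controls 1 to 3 and at 0.504, 3.303 and 14.5 FPKM in NB4 controls 1 to 3. Its log2 difference was -8.91 ± 0.90 (adjusted p = 2.18e-05) and -9.93 without NB4 control 3 and Kasumi-1 control 2, and leaving out 1 library at a time gave -7.73 without NB4 control 1 and -10.03 without NB4 control 3. The surface antigen of stem and progenitor cells CD34 was at 99.1, 93.3 and 99.9 FPKM against 0.0601, 0.154 and 1.31 FPKM (-7.98 ± 0.65, adjusted p = 5.42e-06, and -8.95 without both libraries). KIT, the receptor of stem cell factor, was at 124, 116 and 145 FPKM against 0.0953, 0.532 and 1.22 FPKM (-7.87 ± 0.55, adjusted p = 2.04e-06, and -8.58 without both libraries). TRH, the precursor of thyrotropin-releasing hormone and a known marker gene of AML1-ETO leukemia, was at 34.8, 37.8 and 37.95 FPKM in Kasumi-1, and in NB4 it was listed at 0 in controls 1 and 2 and at 0.202 FPKM in control 3. The 3 Kasumi-1 values of CD34, KIT and TRH were close together, and the spread lay in NB4, where control 3 was highest each time. Without NB4 control 1, CD34 was at -7.35 and KIT at -7.13 in log2.

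The amyloid precursor gene APP was at 123, 126 and 124 FPKM in Kasumi-1 and 0.0639, 0.346 and 1.52 FPKM in NB4. C1QTNF4, a secreted protein of the C1q and TNF-related family, was at 172, 194 and 114 FPKM against 0.287, 0.180 and 1.24 FPKM. The serine protease inhibitor SPINT2 was at 103, 101 and 89.3 against 0.0942, 0.337 and 1.09 FPKM, the Notch-modifying enzyme MFNG at 52.6, 58.8 and 53.9 against 0.0440, 0.133 and 0.602 FPKM, PODXL2 at 46.7, 51.9 and 45.3 against 0.0159, 0.0385 and 0.485 FPKM and EGFL7, host gene of miR-126, at 86.5, 98.2 and 86.4 against 0.0335, 0.226 and 1.17 FPKM. The log2 differences of these 6 genes lay between -8.21 and -7.59, and without both libraries between -8.84 and -8.19. Without NB4 control 1 alone, APP, EGFL7 and SPINT2 moved to -7.19, -7.13 and -7.08.

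**Figure D2:**
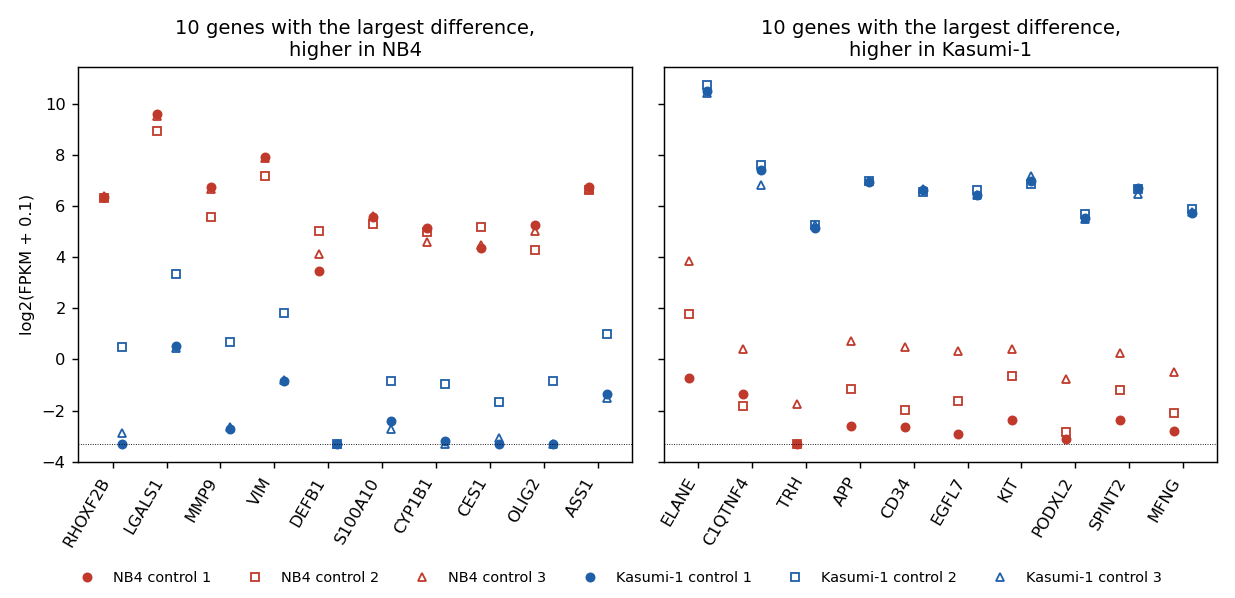
Level in each library, as log2(FPKM + 0.1), of the 10 genes with the largest log2 difference towards NB4 (left) and towards Kasumi-1 (right). Red symbols are NB4 controls 1 to 3, blue symbols Kasumi-1 controls 1 to 3, and the dotted line marks 0 FPKM. Only genes whose lines do not overlap could be chosen, so the gap in each of the 20 genes is given by the choice. In the line that lacks a gene, NB4 control 3 or Kasumi-1 control 2 is usually the highest.

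The 250 bases before the RefSeq start site (assembly GRCh38.p14) are shown for 2 genes of each line, as regulatory sequences next to large differences. These genes have 1 listed promoter and are among the 10 with the largest log2 difference per direction. They are not the top ranks. RHOXF2B and DEFB1, both ranked above S100A10, were left out of the choice. Capitals mark a match to one of 6 motifs searched on both strands. RUNX proteins were searched as TGTGGT. Factors of the ETS family, which includes PU.1 and ERG, were searched as AGGAAG. For the GATA family the letters were AGATAA. The C/EBP family, to which CEBPA belongs, was searched by the letters TTGCNNAA. The E-box of MYC and its relatives was searched as CACGTG. Receptors of retinoids were searched by their core element, AGGTCA. VIM lies at chr10:17227991-17228240 on the plus strand and S100A10 at chr1:151993860-151994109 on the minus strand, and both genes were higher in NB4. TRH lies at chr3:129974470-129974719 on the plus strand and CD34 at chr1:207911126-207911375 on the minus strand, and both were higher in Kasumi-1.
VIM: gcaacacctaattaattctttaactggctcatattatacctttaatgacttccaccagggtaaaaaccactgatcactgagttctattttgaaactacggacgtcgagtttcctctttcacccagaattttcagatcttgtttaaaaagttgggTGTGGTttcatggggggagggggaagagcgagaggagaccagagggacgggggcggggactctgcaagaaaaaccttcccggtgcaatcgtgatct
S100A10: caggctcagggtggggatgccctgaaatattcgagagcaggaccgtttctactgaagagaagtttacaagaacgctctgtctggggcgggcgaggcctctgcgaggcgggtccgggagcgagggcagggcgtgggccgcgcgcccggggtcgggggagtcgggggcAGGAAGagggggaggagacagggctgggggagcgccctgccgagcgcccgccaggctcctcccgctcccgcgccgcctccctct
TRH: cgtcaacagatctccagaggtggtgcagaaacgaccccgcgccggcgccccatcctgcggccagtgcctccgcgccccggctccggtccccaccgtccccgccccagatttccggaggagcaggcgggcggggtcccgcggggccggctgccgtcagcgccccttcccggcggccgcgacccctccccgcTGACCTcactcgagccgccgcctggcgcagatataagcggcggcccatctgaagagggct
CD34: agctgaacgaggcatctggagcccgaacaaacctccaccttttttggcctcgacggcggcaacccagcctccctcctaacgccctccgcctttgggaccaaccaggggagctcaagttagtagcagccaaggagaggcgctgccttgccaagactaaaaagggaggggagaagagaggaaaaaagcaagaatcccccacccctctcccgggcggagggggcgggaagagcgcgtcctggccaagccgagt
The VIM sequence holds the RUNX letters on its plus strand, S100A10 holds the ETS letters, TRH holds the retinoid letters in reverse complement, and the CD34 sequence holds no match. These letters are common. Among 13959 such windows of 9675 tested genes, 8.42% held the RUNX letters, 28.6% the ETS letters, 5.04% the GATA letters, 6.33% the C/EBP letters, 8.37% the E-box and 9.02% the retinoid letters. Among the 444 windows of genes called at least 8-fold higher in NB4, the shares were 11.3% for RUNX, 35.1% for ETS, 6.76% for GATA, 9.23% for C/EBP, 4.05% for the E-box and 10.1% for the retinoid letters. Among the 562 windows of genes called at least 8-fold higher in Kasumi-1, they were 6.76%, 28.6%, 5.87%, 4.98%, 5.52% and 9.61%. The shares were not tested, and genes with several windows count more than once.

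Of the 4 genes joined in the fusions, RUNX1T1, RUNX1 and RARA differed in level between the lines and PML was not called. RUNX1T1, the ETO part of AML1-ETO, was at 8.38, 8.45 and 8.73 FPKM in Kasumi-1 and at 0, 0.0315 and 0.0762 FPKM in NB4 (-6.02 ± 0.20, adjusted p = 5.84e-08). RUNX1, present in both lines, was at 32.8, 33.7 and 37.2 FPKM in Kasumi-1 and 14.01, 15.5 and 13.8 FPKM in NB4 (-1.25 ± 0.08, adjusted p = 1.15e-06). RARA was at 4.32, 5.32 and 4.37 FPKM in NB4 and 1.43, 1.64 and 1.68 FPKM in Kasumi-1 (1.502 ± 0.13, adjusted p = 6.12e-06), while PML averaged 6.05 and 6.58 FPKM and was not called. A value per gene cannot separate fusion transcripts from those of the intact allele. RXRA, the partner of RARα on DNA, differed more than RARA itself, with 21.9, 19.8 and 21.95 FPKM against 2.34, 3.23 and 2.56 FPKM (2.93 ± 0.12, adjusted p = 1.10e-07). RXRB leaned to Kasumi-1 at 12.6, 14.2 and 13.2 against 7.97, 8.81 and 9.49 FPKM (-0.61 ± 0.091), a call that is lost after TPM scaling, median centring and quantile normalization.

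Of 18 tested partners and relatives of the fusion proteins, 7 were higher in NB4 and 3 in Kasumi-1, and 8 were not called, with a median log2 difference of 0.23 against -0.10 for all genes tested. These calls are 55.6% of the list, against 52.4% of all genes tested (22.7% higher in NB4 and 29.7% higher in Kasumi-1), and the counts of the lists that follow are to be read against the same shares. The 7 included CBFA2T3, a relative of ETO, at 11.3, 11.3 and 13.1 against 2.898, 2.87 and 3.04 FPKM, CBFB, the partner of RUNX proteins on DNA, at 60.4, 59.6 and 53.1 against 32.3, 32.7 and 33.2 FPKM, and the corepressor NCOR1 at 12.7, 12.5 and 12.3 against 6.29, 6.55 and 6.55 FPKM. RUNX2, RUNX3, HDAC1, HDAC2, HDAC3, SIN3A and CBFA2T2 made up the rest of the genes without a call.

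Genes that mark AML1-ETO leukemia were mostly higher in Kasumi-1. Of 10 tested, 8 were higher in Kasumi-1 and 1 in NB4, with a median of -4.16. Besides CD34, KIT, TRH and RUNX1T1, they included POU4F1, a POU homeobox gene, at 6.91, 7.44 and 7.46 against 0.408, 0.780 and 0.788 FPKM, and ROBO1, a SLIT receptor, at 3.84, 3.59 and 3.74 against 0, 0.00505 and 0.0654 FPKM. NCAM1, which encodes the adhesion molecule CD56, went the other way at 2.43, 2.26 and 2.000 FPKM in NB4 and 0, 0.0287 and 0.00469 FPKM in Kasumi-1 (4.39 ± 0.18). IGFBP7 averaged 30.6 FPKM in NB4 and 38.5 FPKM in Kasumi-1 and was not called.

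The stem and progenitor genes were higher in Kasumi-1 in 17 of 20 tested, with a median of -2.61. ERG, an ETS factor of stem cells, was at 11.5, 11.6 and 11.2 FPKM in Kasumi-1 and 0.0621, 0.104 and 0.184 FPKM in NB4. BAALC was at 12.7, 13.1 and 10.2 against 0, 0.0593 and 0.127 FPKM, NPR3 at 6.23, 5.06 and 6.27 against 0.0965, 0.0628 and 0.102 FPKM, and TAL1, a basic helix-loop-helix factor of early blood cells, at 2.85, 2.15 and 2.24 against 0.0704, 0.0323 and 0.0675 FPKM. LMO2, LYL1, SOX4, MSI2, HHEX, ANGPT1 and HLF followed with log2 differences of -2.83 to -0.94, and MYCN and CRHBP were called as well and were listed at 0 in all 3 NB4 libraries. The 2 exceptions were FLT3, a receptor kinase of progenitors, at 4.23, 4.54 and 4.097 against 1.49, 1.49 and 2.29 FPKM (1.26 ± 0.17, adjusted p = 1.16e-04), and CD38, an ectoenzyme gained as progenitors commit, at 3.67, 14.03 and 4.12 against 1.14, 1.03 and 2.14 FPKM. NB4 control 2 set the CD38 value, and without it the log2 difference was 1.45. GATA2 averaged 8.13 and 9.08 FPKM and was not called.

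The primary granule genes were split. Of 17 genes, all tested, 9 were higher in Kasumi-1, 6 were higher in NB4 and 2 (CTSC and CSTA) were not called, and the median was -0.81. Other serine proteases were on the Kasumi-1 side together with ELANE. PRTN3, proteinase 3, was at 2941, 3677 and 2523 FPKM in Kasumi-1 and 146, 449 and 259 FPKM in NB4 (-3.55 ± 0.34, adjusted p = 1.55e-05), and its neighbour AZU1, azurocidin, at 976, 1189 and 783 against 45.5, 83.2 and 57.6 FPKM (-4.01 ± 0.22, adjusted p = 4.33e-07). PRSS57 was at 486, 539 and 406 against 49.7, 88.3 and 72.1 FPKM, the complement protease CFD at 230.2, 262 and 204 against 15.7, 35.02 and 21.1 FPKM, and SERPINB1, an inhibitor of these proteases, at 224, 243 and 244 against 9.45, 17.5 and 12.2 FPKM. CTSG, cathepsin G, differed less, at 111, 144 and 79.8 against 18.2, 86.3 and 29.5 FPKM (-1.59 ± 0.48, adjusted p = 0.0147). Among NB4 libraries, control 2 held the highest PRTN3, AZU1 and CTSG, and among Kasumi-1 libraries it was control 2 as well.

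Myeloperoxidase was abundant in both lines. MPO was at 2394, 3323 and 2972 FPKM in NB4 and 5007, 5191 and 4874 FPKM in Kasumi-1 (-0.81 ± 0.13, adjusted p = 4.79e-04), a call that is lost after quantile normalization. The NB4 side of the granule list held the ribonucleases, the eosinophil proteins, lysozyme and the proteoglycan that packs granules. SRGN, serglycin, was at 346, 494 and 348 FPKM in NB4 and 18.1, 26.6 and 20.9 FPKM in Kasumi-1 (4.17 ± 0.17, adjusted p = 9.97e-08), LYZ at 391, 270.4 and 294 against 39.4, 48.2 and 33.8 FPKM and RNASE2 at 174, 214 and 183 against 28.5, 44.3 and 37.4 FPKM. PRG2, the major basic protein of eosinophils, was at 164, 75.5 and 272 FPKM in NB4 and 1.02, 2.98 and 0.913 FPKM in Kasumi-1 (6.63 ± 0.51), and EPX, eosinophil peroxidase, at 1.84, 0.572 and 5.72 against 0, 0.0153 and 0 FPKM. PRG2 and EPX varied together within NB4, lowest in control 2 and highest in control 3, and the log2 difference of EPX was 5.003 without NB4 control 2, 3.45 without NB4 control 3 and 3.51 without NB4 control 3 and Kasumi-1 control 2.

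Proteins of later granules were scarce and mostly higher in NB4. Of 15 genes, 8 passed the filter of 0.1 FPKM, of which 6 were higher in NB4 and 2 in Kasumi-1, with a median of 2.93. LTF, LCN2, MMP8, CEACAM8, PGLYRP1, ARG1 and CRISP3 did not pass. MMP9 stood far above the others. ITGAM, the CD11b antigen of maturing myeloid cells, was at 2.901, 2.403 and 2.91 against 0.0922, 0.0881 and 0.0782 FPKM (3.93 ± 0.15, adjusted p = 8.48e-08), and CHI3L1 at 4.54, 18.00 and 4.804 against 0.0204, 0.207 and 0.0452 FPKM, highest in NB4 control 2 (4.77 in log2 without it, 5.41 ± 0.53 with it and 6.11 without NB4 control 3 and Kasumi-1 control 2). CEACAM6 was listed at 0 in NB4 and was at 0.698, 1.16 and 1.65 FPKM in Kasumi-1.

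**Figure D3:**
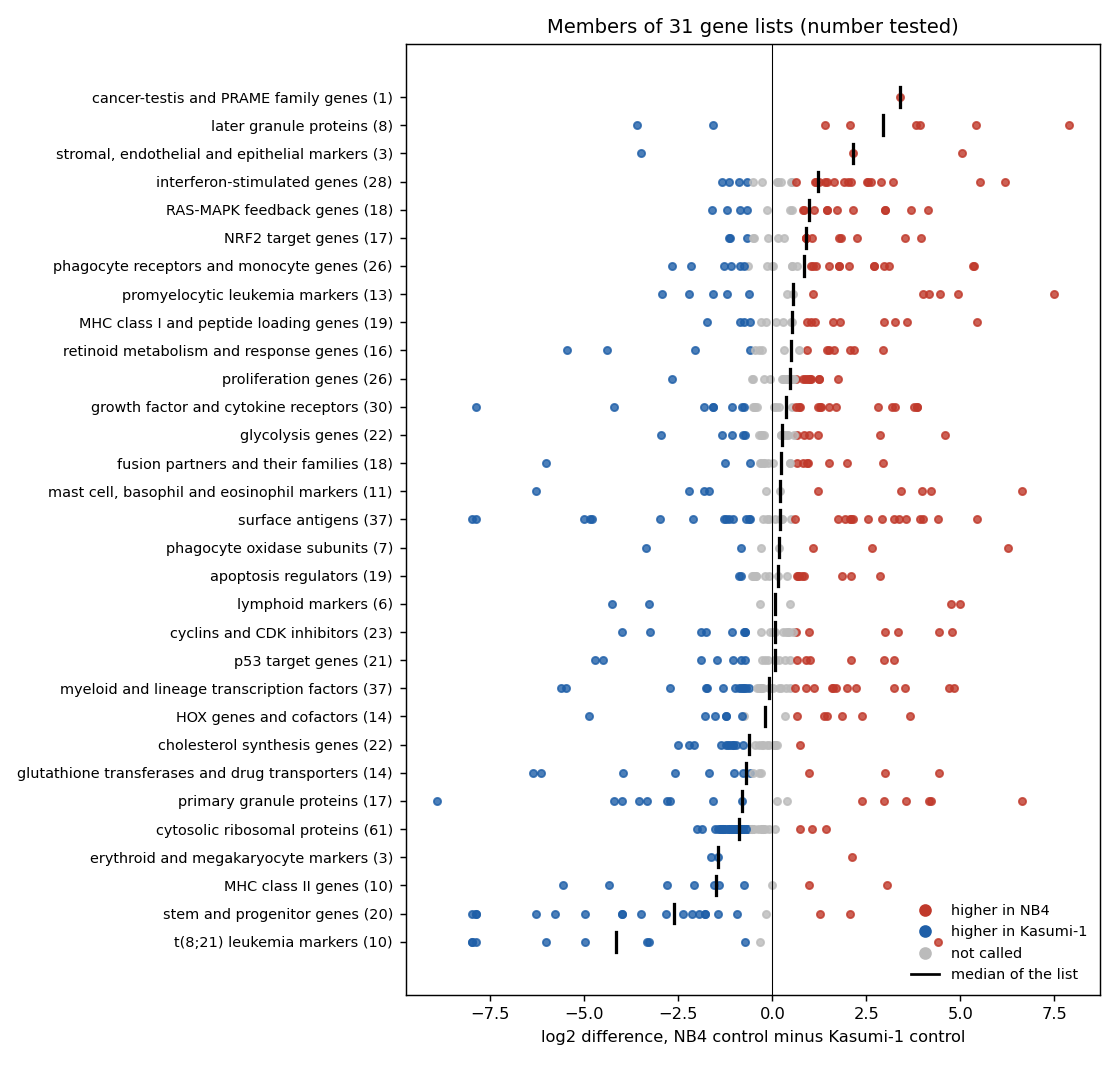
Log2 difference (NB4 control minus Kasumi-1 control) of each tested member of 31 gene lists, ordered by the list's median, which is the black bar. Red points are members called higher in NB4, blue points members called higher in Kasumi-1 and grey points members not called; the number in brackets is the number tested, and the AML1-ETO marker and stem cell lists lie lowest while the later granule list lies near the top.

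Genes known from promyelocytic leukemia and its bleeding disorder went both ways, 6 of 13 tested higher in NB4 and 5 in Kasumi-1, with a median of 0.56. On the NB4 side stood S100A10, tissue factor F3, which starts clotting, at 10.3, 8.19 and 9.25 against 0.478, 0.561 and 0.266 FPKM (4.16 ± 0.21, adjusted p = 3.19e-07), thrombomodulin THBD at 5.14, 5.47 and 3.68 against 0.0382, 0.146 and 0.0146 FPKM and the scavenger receptor STAB1 at 9.27, 9.09 and 9.28 against 0.362, 0.427 and 0.208 FPKM. CST7 was at 51.1, 67.7 and 60.3 against 3.899, 6.51 and 1.82 FPKM. Annexin A2 (ANXA2), the binding partner of S100A10, averaged 25.98 and 19.3 FPKM and was not called. On the Kasumi-1 side stood the plasminogen activator PLAU at 9.97, 12.1 and 10.7 against 5.26, 3.99 and 4.805 FPKM, and TFPI, the inhibitor of tissue factor, at 0.584, 0.665 and 0.762 FPKM and listed at 0 in NB4. HGF was at 12.9, 11.5 and 15.95 against 7.65, 7.704 and 11.2 FPKM (-0.61 ± 0.17, adjusted p = 0.00848), a call that is lost after median centring. After TPM scaling 8 members were higher in NB4 and 3 in Kasumi-1.

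The transcription factors of the myeloid and lymphoid lineages were split, 12 of 37 higher in NB4, 13 in Kasumi-1 and 12 not called. The median of -0.08 changes sign after TPM scaling (0.12) and median centring (0.06). CEBPA, the factor that drives granulocyte commitment, was at 72.9, 81.1 and 81.8 FPKM in NB4 and 6.66, 9.03 and 9.36 FPKM in Kasumi-1 (3.23 ± 0.13, adjusted p = 8.48e-08). The monocyte factors IRF8 and KLF4 stood at 24.6, 20.8 and 21.8 and at 3.25, 2.12 and 4.01 FPKM in NB4, against at most 1.65 and 0.0327 FPKM in any Kasumi-1 library. On the Kasumi-1 side was the inhibitor of differentiation ID1, at 20.3, 23.9 and 22.4 against 0.177, 0.272 and 0.812 FPKM (-5.61 ± 0.37). Its relative ID3 was at 8.84, 8.27 and 6.47 against 0.0838, 0 and 0.193 FPKM (-5.49 ± 0.34). The repressor GFI1 was at 61.99, 67.9 and 64.4 against 16.7, 22.4 and 17.9 FPKM. MYC was at 130.4, 152 and 132 against 82.4, 85.6 and 85.9 FPKM (-0.70 ± 0.076), near the limit of a call. After TPM scaling 9 members were higher in Kasumi-1 and 12 in NB4, and whether MYC is among the 9 is not given here. SPI1 (PU.1), the factor that both myeloid branches need, averaged 31.03 FPKM in NB4 and 30.7 FPKM in Kasumi-1 and was not called, nor were CEBPB, CEBPD, CEBPE and MYB.

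The HOX genes and their cofactors differed gene by gene, 6 of 14 tested higher in each line with a median of -0.21, and none of the HOXB genes of the list passed the filter. HOXA5 was at 5.87, 6.33 and 6.96 FPKM in Kasumi-1 and 0.222, 0 and 0.230 FPKM in NB4 (-4.88 ± 0.41, adjusted p = 6.13e-06), and HOXA3 and HOXA2 were also higher in Kasumi-1. HOXA13 was at 4.19, 5.63 and 4.79 against 0.595, 0.915 and 1.100 FPKM (2.38 ± 0.21, adjusted p = 7.79e-06) and HOXA4 at 1.37, 1.69 and 1.73 against 0.484, 0.308 and 0.335 FPKM. HOXA10, the most abundant of them, averaged 18.1 and 14.4 FPKM and was not called. The cofactor PBX3 was at 1.71, 1.18 and 1.33 FPKM in NB4 and at most 0.0301 FPKM in Kasumi-1, while MEIS2 was at 3.19, 3.14 and 3.19 FPKM in Kasumi-1 against 1.09, 0.996 and 1.02 FPKM. With a pseudocount of 1, only 4 members were called higher in NB4 and 2 in Kasumi-1.

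Of 37 surface antigen genes tested, 15 were higher in NB4 and 14 in Kasumi-1, with a median of 0.20. ITGB2, the CD18 integrin chain, was at 50.4, 49.99 and 47.4 against 6.18, 8.35 and 11.5 FPKM (2.54 ± 0.18, adjusted p = 2.49e-06), and ITGAL, ITGAM and ITGAX, chains that pair with it, were called higher in NB4 as well (2.13, 3.93 and 1.75). ANPEP (CD13) was at 69.5, 58.5 and 72.7 against 14.7, 18.5 and 13.5 FPKM, CD82 at 24.8, 21.1 and 20.9 against 2.09, 2.16 and 2.53 FPKM and CD9 at 5.09, 4.47 and 5.55 against 0, 0.0680 and 0 FPKM. On the Kasumi-1 side, besides CD34 and KIT, were ITGB1, the CD29 chain, at 78.7, 76.8 and 78.5 against 18.8, 16.2 and 19.4 FPKM (-2.104 ± 0.081, adjusted p = 7.84e-08), CLEC5A at 52.8, 62.1 and 79.9 against 3.23, 1.05 and 2.696 FPKM, CD200 at 3.38, 3.65 and 3.76 against 0, 0.00805 and 0.0359 FPKM and CD44 at 26.7, 25.6 and 27.5 against 13.7, 11.7 and 13.5 FPKM. The myeloid antigen CD33 averaged 8.08 and 8.57 FPKM and ITGA4 41.1 and 39.3 FPKM, and neither was called. CD14, CD2 and CD7 did not reach the filter.

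Of 30 growth factor and cytokine receptors tested, 14 were higher in NB4 and 8 in Kasumi-1, with a median of 0.36. CXCR4, the receptor that holds blood cells in the marrow, was at 32.2, 35.9 and 31.6 FPKM in NB4 and 2.27, 2.53 and 1.91 FPKM in Kasumi-1 (3.84 ± 0.11, adjusted p = 5.43e-08). IL6R was at 12.1, 16.00 and 12.5 against 0.891, 1.08 and 0.728 FPKM, while IL6ST, the chain that signals for it, was higher in Kasumi-1 at 4.36, 4.47 and 4.07 against 1.39, 1.301 and 1.42 FPKM. The chemokine receptors CCR1 and CCR2 were at 3.73, 3.73 and 2.57 and at 1.68, 2.68 and 1.31 FPKM in NB4 and at most 0.199 and 0.263 FPKM in Kasumi-1. CSF3R, the receptor of granulocyte colony-stimulating factor, was at 91.98, 101 and 84.4 FPKM in Kasumi-1 against 4.02, 6.198 and 4.81 FPKM in NB4 (-4.198 ± 0.14, adjusted p = 5.95e-08). TGFBR2 was at 16.5, 16.1 and 16.9 against 5.303, 4.13 and 4.38 FPKM, while TGFBR1 was at 9.52, 5.72 and 7.97 FPKM in NB4 against 3.19, 3.46 and 2.98 FPKM.

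Genes of phagocytes and monocytes were more often higher in NB4, 13 of 26 tested against 6 in Kasumi-1, with a median of 0.84. TYROBP, an adaptor of activating receptors, was at 17.2, 18.2 and 16.3 against 0.185, 0.531 and 0.319 FPKM (5.36 ± 0.25, adjusted p = 1.77e-07), AIF1 at 102, 99.8 and 95.9 against 10.8, 13.9 and 13.1 FPKM, galectin-3 (LGALS3) at 14.98, 6.35 and 13.3 against 0.0809, 0.232 and 0.232 FPKM and TLR4 at 5.07, 4.49 and 3.72 against 1.29, 1.25 and 1.09 FPKM. TLR2 went the other way at 8.46, 8.56 and 9.29 against 2.596, 1.06 and 2.39 FPKM (-2.16 ± 0.28, adjusted p = 1.03e-04), and so did FPR2 at 1.18, 1.53 and 1.398 against 0.0849, 0.134 and 0.176 FPKM. FCGR1A, the CD64 receptor, was at 5.62, 5.92 and 4.48 against 3.04, 1.57 and 1.99 FPKM. In all 11 members, CD14, CD163 and MRC1 among them, did not pass the filter.

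The subunits of the phagocyte oxidase, which makes superoxide only when all are present, were divided between the lines. CYBB, the catalytic gp91 chain, was at 46.7, 34.96 and 38.5 FPKM in NB4 and 0.242, 0.982 and 0.283 FPKM in Kasumi-1 (6.26 ± 0.38, adjusted p = 8.25e-07), and its membrane partner CYBA averaged 64.1 and 78.9 FPKM without a call. NCF4, the p40 subunit, was at 18.98, 23.5 and 16.4 FPKM in Kasumi-1 and 11.7, 9.53 and 11.6 FPKM in NB4 (-0.83 ± 0.14, adjusted p = 5.20e-04). NCF1, the p47 subunit, was at 5.11, 4.99 and 4.42 FPKM in NB4 against 0.441, 0.870 and 0.809 FPKM in Kasumi-1, a value that is uncertain because its pseudogenes are near-identical. Of the GTPases, RAC1 was higher in NB4 at 204, 183 and 184 against 85.4, 93.8 and 91.97 FPKM and RAC2 was not called.

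MHC class II genes were higher in Kasumi-1 in 7 of 10 tested and in NB4 in 2, with a median of -1.49. HLA-DRA was at 12.9, 10.3 and 11.3 FPKM in Kasumi-1 and 0.174, 0.0406 and 0.267 FPKM in NB4 (-5.58 ± 0.31, adjusted p = 4.67e-07), and CD74, the invariant chain, at 32.95, 34.1 and 29.1 against 2.09, 0.647 and 2.25 FPKM (-4.36 ± 0.37, adjusted p = 7.26e-06). CIITA, the activator of this gene family, was low in both at 0.356, 0.295 and 0.345 against 0.0627, 0.0460 and 0.0350 FPKM and was called higher in Kasumi-1. The 2 exceptions were RFXAP, a subunit of the factor that binds class II promoters, and HLA-DOB, which was at 1.296, 1.36 and 0.949 FPKM in NB4 against 0.121, 0.0683 and 0 FPKM.

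For MHC class I and peptide loading, 9 of 19 tested were higher in NB4 and 4 in Kasumi-1, with a median of 0.53. The immunoproteasome subunits PSMB9 and PSMB8 were at 7.43, 7.71 and 8.09 against 0, 0.0997 and 0.196 FPKM (5.44 ± 0.33, adjusted p = 9.16e-07) and at 23.5, 24.9 and 21.7 against 1.84, 2.06 and 3.39 FPKM (3.26 ± 0.19, adjusted p = 7.76e-07). The peptide transporter TAP1 was at 7.82, 6.88 and 7.83 against 0.492, 0.432 and 0.711 FPKM and NLRC5, the activator of class I genes, at 6.75, 7.45 and 7.22 against 0.742, 0.817 and 0.930 FPKM. HLA-C was at 45.9, 43.7 and 43.7 FPKM in NB4 against 10.03, 13.4 and 15.1 FPKM in Kasumi-1, and B2M averaged 493 and 406 FPKM without a call. HLA genes differ between donors, which alters how reads map to them, so their levels between lines are uncertain. After TPM scaling 11 members were higher in NB4 and 2 in Kasumi-1.

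Interferon-stimulated genes were higher in NB4 in 17 of 28 tested and in Kasumi-1 in 4, with a median of 1.21. MX2 was at 14.4, 14.3 and 12.8 FPKM in NB4 and 0.0177, 0.237 and 0.0774 FPKM in Kasumi-1 (6.18 ± 0.32, adjusted p = 3.53e-07), BST2 (tetherin) at 63.3, 61.4 and 53.04 against 0.918, 1.96 and 0.902 FPKM (5.53 ± 0.25, adjusted p = 1.58e-07) and ISG15 at 15.9, 13.7 and 15.3 against 1.84, 1.95 and 2.03 FPKM. Many members were low, and with a minimum mean of 1 FPKM 11 were called higher in NB4 and 1 in Kasumi-1. HERC5 was the clearest exception at 7.64, 8.79 and 7.57 against 3.42, 2.83 and 3.08 FPKM. IFIT2 was at 1.46, 1.37 and 0.887 against 0.971, 0.571 and 0.679 FPKM, with libraries of both lines overlapping (-0.67 ± 0.23, adjusted p = 0.0264), and its call was lost without NB4 control 3 and Kasumi-1 control 2.

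Genes of the RAS-MAPK feedback list were higher in NB4 in 11 of 18 tested and in Kasumi-1 in 4, with a median of 0.97. Its DUSP, SPRY and SPRED members dampen the signalling, while others, such as ETV4 and CCND1, are among its targets. ETV4 was at 11.3, 8.405 and 11.9 against 0.399, 0.675 and 0.450 FPKM (4.14 ± 0.20, adjusted p = 2.01e-07), SPRY4 at 2.78, 2.15 and 2.96 against 0.0554, 0.237 and 0.0759 FPKM and CCND1 at 4.23, 3.09 and 5.93 against 0.458, 0.324 and 0.592 FPKM. DUSP6, the ERK phosphatase often used as a readout, averaged 33.8 and 36.7 FPKM and was not called. The 4 members higher in Kasumi-1 were DUSP1, DUSP4, SPRY2 and DUSP5, and the DUSP5 call is lost after TPM scaling. The list is made mostly of dampers, and some of them, such as SPRY4, were higher in NB4. Within NB4, control 2 was the lowest for ETV4, SPRY4, CCND1 and IER3.

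Genes of retinoid metabolism and response were higher in NB4 in 7 of 16 tested and in Kasumi-1 in 4, with a median of 0.50. Apart from RXRA and RARA, those of NB4 included DHRS9 at 6.86, 11.7 and 7.05 against 2.34, 2.82 and 2.66 FPKM and RARRES3 at 0.314, 1.23 and 0.526 against 0, 0.0647 and 0.126 FPKM. NRIP1, a corepressor of nuclear receptors, was at 5.78, 5.25 and 5.88 FPKM in Kasumi-1 and 0.0108, 0.0116 and 0.0772 FPKM in NB4 (-5.46 ± 0.20, adjusted p = 7.45e-08), and DHRS3, which turns retinal back to retinol, at 3.58, 3.65 and 4.29 against 0.0188, 0.183 and 0.0894 FPKM (-4.41 ± 0.28, adjusted p = 1.21e-06). Target genes such as RARB, CYP26A1, CYP26B1 and TGM2 did not pass the filter.

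A cyclin and a kinase of the G1 phase differed in opposite directions. CCND3, cyclin D3, was at 97.7, 86.7 and 96.2 FPKM in NB4 and 2.94, 4.15 and 2.96 FPKM in Kasumi-1 (4.78 ± 0.13, adjusted p = 4.50e-08). CDK6, a kinase that D cyclins bind, was at 60.4, 51.3 and 51.4 FPKM in Kasumi-1 and 3.06, 3.49 and 3.43 FPKM in NB4 (-3.99 ± 0.093, adjusted p = 4.50e-08). CDK4, the other such kinase, averaged 97.8 and 97.4 FPKM and was not called, nor was CCND2. Of the inhibitors, CDKN1B (p27) was at 44.5, 49.4 and 57.7 against 14.6, 11.2 and 14.4 FPKM and CDKN2C (p18) at 42.6, 45.4 and 46.2 against 14.1, 12.7 and 12.3 FPKM, while CDKN2D (p19) was at 12.5, 10.8 and 12.6 FPKM in NB4 against 0.826, 0.932 and 1.71 FPKM. CCNA1, a cyclin of germ cells and myeloid leukemia, was at 18.6, 7.47 and 16.3 against 0.489, 0.618 and 0.450 FPKM. In all, 6 of 23 tested were higher in NB4 and 8 in Kasumi-1, a count that became 9 and 5 after TPM scaling.

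Proliferation genes were higher in NB4 in 10 of 26 and in Kasumi-1 in 1, and 15 were not called, with a median of 0.48. That is 42.3% called, against 52.4% of all genes tested. After TPM scaling 18 were higher in NB4. The mitotic kinase PLK1 was at 67.4, 63.7 and 62.8 against 18.7, 19.6 and 18.9 FPKM (1.75 ± 0.064, adjusted p = 6.77e-08) and the helicase subunit MCM6 at 99.9, 101 and 98.2 against 39.9, 43.5 and 43.1 FPKM (1.24 ± 0.064, adjusted p = 3.41e-07). MKI67 averaged 27.01 and 19.6 FPKM and TOP2A 55.3 and 57.7 FPKM, both without a call. UBE2C, the ubiquitin-conjugating enzyme of mitosis, was at 32.6, 33.9 and 34.02 FPKM in Kasumi-1 and 5.94, 4.73 and 4.87 FPKM in NB4.

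Among p53 target genes, 6 of 21 tested were higher in NB4 and 7 in Kasumi-1, with a median of 0.06. TP53INP1 was at 5.09, 3.98 and 4.198 FPKM in Kasumi-1 and 0.0205, 0.0880 and 0.118 FPKM in NB4 (-4.72 ± 0.23, adjusted p = 2.40e-07) and TP53I3 at 2.85, 2.71 and 2.53 against 0, 0 and 0.0881 FPKM. The death receptor FAS was at 1.17, 1.005 and 1.000 FPKM in NB4 against 0.0213, 0.0178 and 0.0289 FPKM (3.24 ± 0.17, adjusted p = 3.67e-07) and BBC3 (PUMA) at 2.87, 1.71 and 3.58 against 0.545, 0.474 and 0.588 FPKM. MDM2 averaged 7.64 and 7.32 FPKM and BAX 27.7 and 31.7 FPKM, without a call. Of 19 apoptosis regulators tested, 8 were higher in NB4 and 2 in Kasumi-1, with a median of 0.15, and the 52.6% called are near the 52.4% of all genes tested. BCL2A1 was at 1.91, 1.82 and 1.61 against 0.126, 0.229 and 0.133 FPKM (2.86 ± 0.19) and BCL2 at 6.49, 6.13 and 6.47 against 3.296, 3.52 and 4.29 FPKM, while MCL1, BCL2L1 and XIAP were not called.

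Cholesterol synthesis genes were higher in Kasumi-1 in 11 of 22 and in NB4 in 1 (MVK, a call lost without NB4 control 2), with a median of -0.63. That is 54.5% called, near the 52.4% of all genes tested. Squalene epoxidase SQLE was at 54.9, 55.4 and 50.3 FPKM in Kasumi-1 and 9.799, 20.2 and 9.91 FPKM in NB4 (-2.09 ± 0.24, adjusted p = 5.05e-05) and the isomerase IDI1 at 30.8, 34.05 and 30.5 against 4.46, 7.57 and 4.96 FPKM (-2.503 ± 0.17, adjusted p = 1.79e-06). NB4 control 2 was highest of the NB4 libraries for both, and also for DHCR7, LSS, CYP51A1 and MVK. Without NB4 control 3 and Kasumi-1 control 2, 8 members were called higher in Kasumi-1, and the call of DHCR7 was lost.

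Of 22 glycolysis genes, 6 were higher in NB4 and 5 in Kasumi-1, with a median of 0.26, which is 50.0% called against 52.4% of all genes tested. The lactate exporter SLC16A3 was at 93.9, 96.9 and 91.8 against 3.23, 5.35 and 3.18 FPKM (4.59 ± 0.18, adjusted p = 7.76e-08) and aldolase ALDOA at 256, 269.7 and 252.0 against 103, 124 and 112 FPKM. The lines differed in isoforms of 2 steps. HK1 was at 20.1, 21.9 and 20.4 FPKM in Kasumi-1 and 2.36, 2.52 and 2.85 FPKM in NB4 (-2.97 ± 0.094, adjusted p = 5.43e-08), with HK2 not called, and of the phosphofructokinases PFKM was higher in NB4 at 2.16, 2.17 and 1.96 against 0.232, 0.244 and 0.136 FPKM and PFKP in Kasumi-1 at 19.8, 23.00 and 24.00 against 8.93, 9.202 and 8.13 FPKM.

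NRF2 target genes, which protect against oxidants, were higher in NB4 in 9 of 17 tested and in Kasumi-1 in 3, with a median of 0.89. HMOX1, which breaks down heme, was at 6.87, 3.03 and 6.22 against 0.196, 0.589 and 0.0839 FPKM (3.95 ± 0.47, adjusted p = 5.79e-05) and NQO1 at 43.5, 30.99 and 36.5 against 5.79, 8.35 and 8.96 FPKM (2.26 ± 0.17, adjusted p = 3.66e-06). The ferritin chains went apart, FTH1 at 542, 293 and 413 FPKM in NB4 against 104, 124 and 131 FPKM and FTL at 1754, 2174 and 2130.4 FPKM in Kasumi-1 against 973, 973 and 846 FPKM. The glutathione transferases GSTM1 and GSTM3 were at 14.4, 15.6 and 17.8 and at 18.8, 20.7 and 17.96 FPKM in Kasumi-1 and at most 0.220 and 0.175 FPKM in NB4, while their relative GSTM4 was at 6.13, 6.55 and 5.94 FPKM in NB4 against 0.594, 0.619 and 0.888 FPKM. The drug exporter ABCB1 was at 1.39, 1.399 and 1.79 FPKM in Kasumi-1 and at most 0.00915 FPKM in NB4 (-3.97 ± 0.18). In the list of transferases and transporters, 8 of 14 tested were higher in Kasumi-1 and 3 in NB4, with a median of -0.69, and reads of the GSTM paralogs may be shared.

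Cytosolic ribosomal protein genes were higher in Kasumi-1 in 45 of 61 and in NB4 in 3, with a median of -0.88, which was -0.68 after TPM scaling, -0.74 after median centring and -0.46 after quantile normalization. RPLP1, the most abundant transcript of Kasumi-1, was at 5455, 5771 and 5277 FPKM there and 2317, 2371 and 2411 FPKM in NB4 (-1.22 ± 0.10, adjusted p = 4.10e-06). RPL28 had the largest difference at 69.7, 83.7 and 72.4 against 20.6, 19.1 and 16.7 FPKM (-1.996 ± 0.10, adjusted p = 2.91e-07). The 3 exceptions were RPL18 at 2111, 2107 and 2088 FPKM in NB4 against 777, 845 and 736 FPKM, RPS6 at 2094, 2196 and 2310.0 against 1123, 1126 and 940.2 FPKM and RPS28 at 2971, 3057 and 2997 against 1850.4, 2015 and 1578 FPKM. ACTB, beta-actin, and TMSB4X, thymosin beta-4, which binds actin monomers, were also among the largest FPKM differences towards NB4, with 3010.2, 2898 and 3060.4 against 1237, 1380.3 and 1236 FPKM and 2680.0, 1512 and 2405 against 923, 1094 and 941 FPKM. Many pseudogenes resemble ribosomal protein genes, so reads may have been lost or shared.

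Markers of other cell types were mostly under the filter, apart from those of mast cells, basophils and eosinophils. Of 23 erythroid and megakaryocyte markers 3 were tested, of 23 lymphoid markers 6, and of 14 stromal, endothelial and epithelial markers 3. Of 16 mast cell, basophil and eosinophil markers 11 were tested, with 5 higher in NB4, 4 in Kasumi-1 and a median of 0.21. That list summed to 146 to 331 FPKM in the NB4 libraries and 33.4 to 39.0 FPKM in the Kasumi-1 libraries. The lymphoid list summed to 56.7 to 84.2 FPKM in the NB4 libraries and 16.6 to 23.1 FPKM in the Kasumi-1 libraries and the erythroid and megakaryocyte list to 4.81 to 10.1 FPKM in the NB4 libraries and 15.1 to 21.8 FPKM in the Kasumi-1 libraries. Single markers were nonetheless high in 1 line. CD3D, a chain of the T cell receptor complex, was at 16.1, 13.5 and 20.4 FPKM in NB4 and 0.338, 0.569 and 0.680 FPKM in Kasumi-1, while CD3E and CD3G did not pass the filter. NKG7, a granule protein of cytotoxic lymphocytes, was at 54.2, 34.3 and 44.1 against 1.01, 3.18 and 0.619 FPKM (4.98 ± 0.47, and 5.598 without NB4 control 3 and Kasumi-1 control 2). The epithelial adhesion molecule EPCAM was at 48.5, 55.99 and 41.4 FPKM in Kasumi-1 and 2.95, 5.94 and 4.097 FPKM in NB4 (-3.51 ± 0.22, adjusted p = 1.07e-06), while CDH1 and KRT19 did not pass. The other 2 tested members of that list, the keratin genes KRT18 and KRT8, were called higher in NB4, at 3.81, 6.56 and 2.77 against 0.0204, 0.0700 and 0 FPKM (5.05 ± 0.32) and at 0.394, 0.475 and 0.391 against 0.0340, 0.0193 and 0 FPKM (2.15 ± 0.20). IGLL1, a surrogate light chain of B cell precursors, was at 9.54, 7.01 and 6.02 against 0.240, 0.335 and 0.295 FPKM and PAX5, the B cell factor that AML1-ETO leukemias can express, at 1.21, 1.24 and 1.02 against 0.0426, 0.0198 and 0.0283 FPKM. SLC18A2, the monoamine transporter of mast cells and basophils, was at 19.4, 20.9 and 17.6 FPKM in Kasumi-1 against 0.130, 0.0941 and 0.240 FPKM, whereas MS4A3, a protein of basophils and granulocyte precursors, was at 37.6, 60.7 and 38.6 FPKM in NB4 against 4.95, 3.76 and 3.64 FPKM. Of 19 cancer-testis and PRAME family genes only XAGE1B was tested, at 0.691, 5.85 and 0.306 FPKM in NB4, highest in NB4 control 2. Its log2 difference of 3.399 ± 0.82 was 2.27 without that library and 4.09 without NB4 control 3 and Kasumi-1 control 2.

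The comparison of the lines was repeated on the samples incubated with OGP46, which are other libraries. Of 12307 genes tested there, 6495 (52.8%) were called, 3301 (26.8%) higher in NB4 and 3194 (26.0%) higher in Kasumi-1. Of the 6449 genes called in the controls, 5677 (88.0%) were called in the same direction with OGP46, which is 87.4% of the OGP46 calls, and 2 were called in the opposite direction. The test of the difference between both comparisons, as the interaction of line and treatment in 1 limma model, found 0 of 12309 genes at an adjusted p below 0.05 and 1348 at an unadjusted p below 0.05. Of the 206 genes chosen for naming, 205 had the same sign with OGP46 and 194 were called there. DUSP5 was the gene that changed sign, from -0.68 to 0.032. The log2 difference was -10.59 for ELANE, -9.44 for CD34, -6.41 for RUNX1T1, 1.67 for RARA, 8.59 for LGALS1 and 9.78 for MMP9 in the OGP46 samples.

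**Figure D4:**
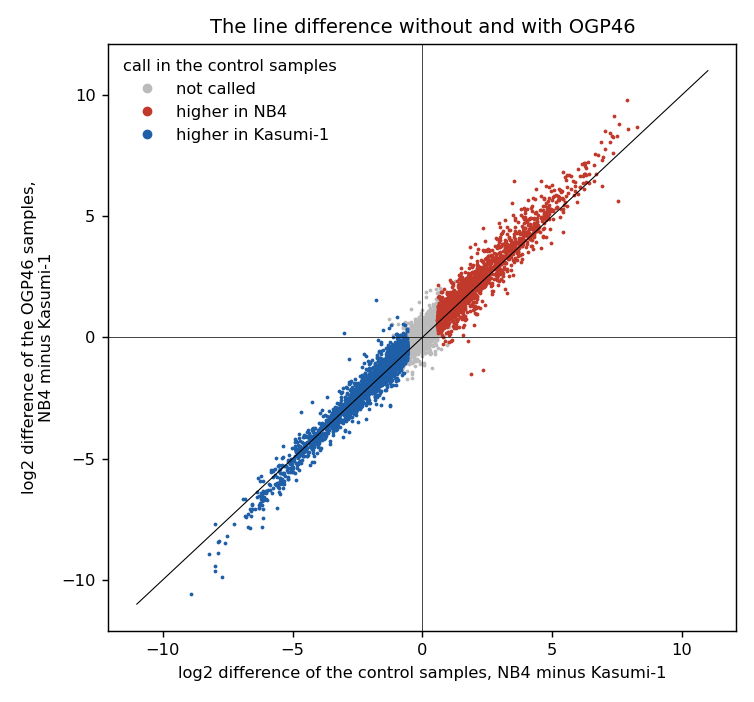
Log2 difference between the lines (NB4 minus Kasumi-1) in the control samples (x axis) and in the OGP46 samples (y axis) for each gene tested in both, 3 libraries per line and treatment. Colours give the call in the controls (red higher in NB4, blue higher in Kasumi-1, grey not called), and the points follow the line of equal difference.

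The differences were not spread evenly over the genome. Gene positions came from GENCODE release 29 on GRCh38, which placed 12094 of the tested genes on the chromosomes, and the labels name the same genome (hg38). The median log2 difference per chromosome ran from -0.53 on chromosomes 8 and 4 to 0.41 on chromosome 7 and 0.49 on chromosome 16. On chromosome 16, 267 of 585 genes (45.6%) were called higher in NB4 and 73 (12.5%) higher in Kasumi-1, and on chromosome 8, 43 of 410 (10.5%) and 191 (46.6%). The order of these 4 chromosomes was alike in the OGP46 samples, with medians of -0.46, -0.44, 0.50 and 0.62. After TPM scaling of the controls, the medians of chromosomes 8, 4, 7 and 16 were -0.34, -0.32, 0.61 and 0.69.

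In blocks of 20 Mb with at least 30 tested genes, 141 in all, the median was below -0.5 in 22 and above 0.5 in 12. These counts are on FPKM as deposited and were not repeated after scaling. In chr10:20000001-40000000, 40 of 43 genes were called higher in Kasumi-1 and 1 in NB4, with a median of -1.57 in the controls and -1.48 in the OGP46 samples. The neighbouring block at chr10:1-20000000 had a median of -1.23, with 45 of 58 genes higher in Kasumi-1. The end of the long arm of chromosome 8, chr8:140000001-160000000, had 63 of 75 genes higher in Kasumi-1 (median -1.35), and chr4:40000001-60000000, which holds KIT, had 39 of 50 (median -1.44). In the other direction, chr9:1-20000000 had 29 of 37 genes higher in NB4 (median 1.5 in the controls and 1.73 in the OGP46 samples), chr2:220000001-240000000 had 49 of 58 (median 1.31) and chr13:20000001-40000000 had 48 of 65 (median 0.95). VIM lies at the low end of chromosome 10 among genes that were mostly higher in Kasumi-1 and was itself higher in NB4. The number of DNA copies was not measured, so its part in these medians was not tested.

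**Figure D5:**
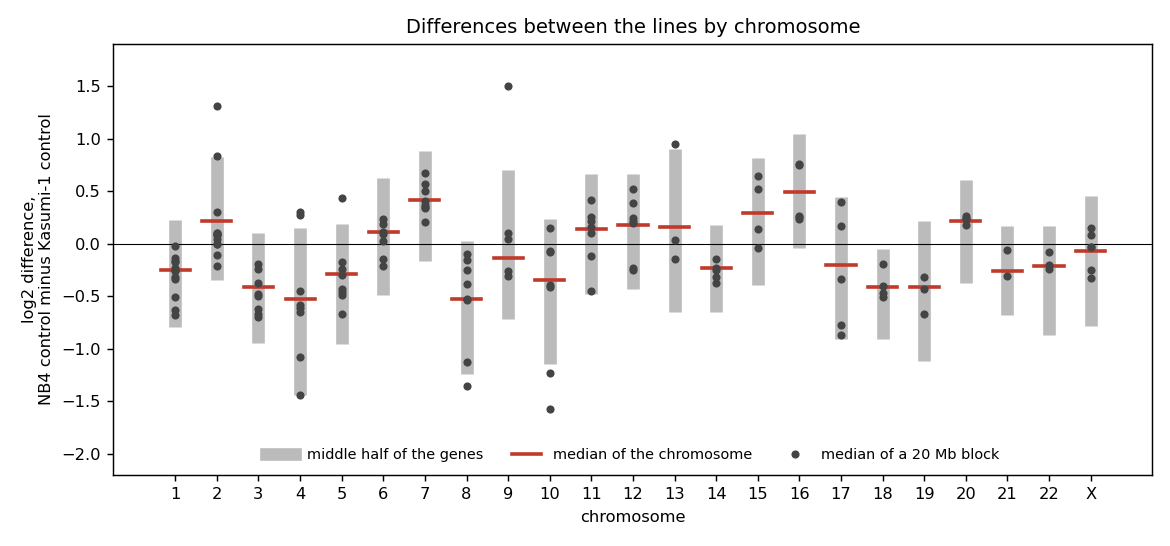
Log2 difference (NB4 control minus Kasumi-1 control) of the tested genes by chromosome. Grey bars span the first to the third quartile of the genes, red lines are chromosome medians and dark points the medians of 20 Mb blocks with at least 30 genes; single blocks of chromosomes 10, 4 and 8 lie lowest and single blocks of chromosomes 9 and 2 highest.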

How the data were processed

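mRNA-seq of 3 NB4 and 3 Kasumi-1 control samples (DMSO, 48 h) was used, grouped as labelled, beside 6 samples with 1 μM OGP46. The authors prepared stranded libraries from poly(A) mRNA, and the submitters' processing notes name Trimmomatic, HISAT2, Cufflinks, HTSeq and the build hg38, with no versions. They deposited FPKM per gene symbol, already scaled for length and library size. Depth is unknown, so no counting interval is given; the spread of 3 samples, which may be technical, sets the precision. Whether counting used strand is not given in the sources used here, so overlapping, antisense and near-identical genes are uncertain. The 27 symbols stored as dates were left out.

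FPKM were tested as log2(FPKM + 0.1) in limma version 3.58.1 (R version 4.3.3) with a mean-variance trend, two-sided, for genes averaging 0.1 FPKM or more over the 6 samples compared, and p-values were adjusted over all genes tested by Benjamini-Hochberg. A call needed an adjusted p below 0.05 and a log2 difference of at least 0.58 in size. Fold changes understate low genes on this scale, and no fold is given for genes listed at 0 in a line, which enter medians of lists on this scale. Errors after ± are standard errors. An exact permutation test of 3 against 3 samples cannot go below p = 0.1 and was not used. On simulated data of 12302 genes, 81 of 100 genes with a true log2 difference of 1 and 93 of 100 with 2 were called, and 4 of 12102 unchanged genes. Far fewer genes differed in the simulation than were called in the data, so these rates may not carry over to the comparison.

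Named genes are, per direction, the 10 called genes with the largest log2 difference that reach 5 FPKM in the higher line and whose groups do not overlap, the 5 with the largest FPKM difference, and up to 4 called members per list. Y-linked genes, XIST, date symbols and read-through symbols were not named. Some genes that this rule names are not reported here. Further list members are given for context and were picked with their values known. The 31 lists and the comparison itself were chosen with earlier results of these data known. Promoter sequences are from RefSeq (GRCh38.p14), and of the tested symbols 12103 (98.4%) are in GENCODE release 29. Signal of the other line was estimated from genes of at least 20 FPKM there whose lowest own library was at most 0.1 FPKM. The tried alternatives were other pseudocounts, filters, scalings, variance models and fold limits, a replicate block and leaving out samples.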

Additional observations from a re-analysis of the deposited data

How the results depend on the processing

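Of the settings tried, only the fold limit moved the counts of calls by over 1.5 times. With a minimum log2 difference of 1, 1741 genes were higher in NB4 and 2374 in Kasumi-1 in the controls, and 2076 and 2122 in the OGP46 samples. Under the other settings the control counts ran from 2031 to 4077 for NB4 and from 2720 to 5091 for Kasumi-1, and leaving out 1 library at a time gave 2638 to 2912 and 3485 to 3776. Subtracting the signal of the other line, with an estimator widened after seeing the data, gave 2809 and 3685, and 6449 of the 6449 calls remained. The subtraction widens differences between the lines by construction, so the kept calls are no check of them. No pairing by replicate number was seen, though so few libraries cannot exclude it. Same-numbered libraries of both lines correlated in their deviations from the line means at -0.049, 0.018 and -0.0047, and the replicate block gave 2792 and 3674 calls in the controls and 3326 and 3202 in the OGP46 samples. The 206 named genes kept their sign in all 4478 alternatives run for them. They were chosen as called in these same libraries, so a change of sign was unlikely. In 74 of the alternatives, over 37 genes, the call was lost. Of these, 22 were at the minimum log2 difference of 1 and 17 at a pseudocount of 1. IFIT2, RXRB, CANX, DUSP5 and GCLC lost their calls most often, also under scalings. Leaving out NB4 control 3 moved 11 named genes by over 0.58 in log2, and Kasumi-1 control 2 moved 8. Of 1364 counts of list members under alternatives, 61 moved by over 1.5 times, 15 with a minimum mean of 1 FPKM and 16 at the log2 limit of 1. As the depth is unknown, levels under about 0.1 FPKM cannot be told from 0, and alternatives could not be fitted for named genes that fell below a filter.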

Other observations

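Few genes listed at 0 in all 3 libraries of one line reached 1 FPKM in the other. Of the genes at 0 in all 3 libraries of one line, 19 had a mean of at least 1 FPKM in Kasumi-1 and 27 in NB4. Signal of the other line limits such counts. Of the genes used to estimate it, 0 of 13 were at 0 in NB4 control 3 and 1 of 16 in Kasumi-1 control 2. How far it lowered the counts was not tested. Among members of the gene lists, MYCN was at 1.26, 0.835 and 0.993 FPKM in Kasumi-1 and listed at 0 in NB4, and TFPI at 0.584, 0.665 and 0.762 FPKM. In NB4, GATA1, the erythroid and eosinophil factor, was at 0.416, 0.189 and 0.587 FPKM and its partner GFI1B at 0.337, 0.192 and 0.384 FPKM, and both were listed at 0 in Kasumi-1, beside the eosinophil genes PRG2 and EPX, for which no common cause was tested.

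NB4 control 2 differed from the other NB4 controls in several gene groups at once. It held more CD38 (3.67, 14.03 and 4.12 FPKM in controls 1 to 3), PRTN3 (146, 449 and 259), CTSG (18.2, 86.3 and 29.5), CHI3L1 (4.54, 18.00 and 4.804) and DHCR7 (11.2, 31.8 and 16.2), and less MMP9 (107, 46.98 and 100.2), CD48 (11.8, 3.03 and 9.81), CD86 (1.71, 0.242 and 1.08), IL10RA (2.68, 0.439 and 1.99) and IER3 (2.26, 0.338 and 1.79). These genes were picked after their values were seen. No label of this library differs from those of its replicates apart from the number.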
